A study of Mus musculus with 16 samples.

Results

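The 10 integrin chain genes described here are Itgae, Itgad, Itgal, Itgam, Itgax, Itga1 and Itga4, which encode α chains, and Itgb1, Itgb2 and Itgb7, which encode β chains. They were chosen by name, with earlier results of these data known, as chains that lymphocytes and other leukocytes use to adhere. All 10 were measured, each by 1 probe set that maps to that gene alone, out of 22180 genes with such a probe set. The arrays hold 16 samples of spleen CD8 T cells in 4 groups of 4: effector cells of KO and of WT chimeras, and memory cells of KO and of WT chimeras. The mice were bone marrow chimeras with Il4i1 knockout (KO) or wild-type (WT) marrow, female, with the strain labelled C56BL/6, and every group had received leukaemia cells from Eµ-TCL1 mice, in which the TCL1 transgene is driven in B cells as a model of chronic lymphocytic leukaemia (CLL). CD8 T cells were sorted 5 weeks after that transplantation, as effector cells that are CD44+ and CD127- or memory cells that are CD44 high and CD127 high. Neither the mice's age, nor whether samples are single mice, nor which sorted cells descend from the marrow graft is given in the labels.

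An integrin is a pair of 1 α and 1 β chain that crosses the membrane and holds a cell to a ligand on another cell or in the matrix. Signals from the T cell receptor or chemokine receptors switch it from a bent, weakly binding form to an extended one, through talin and kindlin at the β tail. The β2 chain pairs with αL to form LFA-1, which holds T cells to ICAM-bearing partners, and with αM, αX and αD, chains best known from myeloid cells. The β7 chain pairs with αE (CD103), which binds E-cadherin on epithelium, or with α4, which then binds MAdCAM-1 of gut vessels. The β1 chain pairs with α1 (CD49a), a collagen receptor, or with α4 (CD49d), which then binds VCAM-1 and fibronectin. In CD8 T cells CD103 and CD49a are known as marks of cells that stay in tissue.

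RefSeq promoter entries (GRCm38.p6) were found for 6 of the 10 genes, Itga1, Itga4, Itgam, Itgax, Itgb1 and Itgb7. The 250 bases before the start given by the entry are shown for the 3 of these that were lower in effector cells, Itga1, Itgb1 and Itgb7. They are also shown for Itga4, the α chain that pairs with both of those β chains and did not pass the test. The Itgb7 window lies inside the span of its gene (102215994 to 102233405), so its start is not the outer end of the gene. Capitals mark matches, on either strand, to TGTGGT (RUNX), GAGGAA (Ets of the PU.1 type), GGGCGG (SP1), TGANTCA (AP-1), TCACACCT (T-box), GGGTGTG (KLF) or CAGCTG (E-box).
Itga1, chr13:115101965-115102214, minus strand: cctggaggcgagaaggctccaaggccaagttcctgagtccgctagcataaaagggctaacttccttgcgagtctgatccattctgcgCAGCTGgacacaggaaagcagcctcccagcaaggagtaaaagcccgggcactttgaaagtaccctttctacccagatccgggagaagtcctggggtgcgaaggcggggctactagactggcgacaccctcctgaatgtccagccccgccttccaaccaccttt
Itgb1, chr8:128685404-128685653, plus strand: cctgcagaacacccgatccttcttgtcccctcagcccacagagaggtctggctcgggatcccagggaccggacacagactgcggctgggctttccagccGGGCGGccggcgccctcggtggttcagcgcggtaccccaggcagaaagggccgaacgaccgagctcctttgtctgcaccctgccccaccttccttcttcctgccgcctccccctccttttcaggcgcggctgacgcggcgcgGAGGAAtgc
Itgb7, chr15:102231936-102232185, minus strand: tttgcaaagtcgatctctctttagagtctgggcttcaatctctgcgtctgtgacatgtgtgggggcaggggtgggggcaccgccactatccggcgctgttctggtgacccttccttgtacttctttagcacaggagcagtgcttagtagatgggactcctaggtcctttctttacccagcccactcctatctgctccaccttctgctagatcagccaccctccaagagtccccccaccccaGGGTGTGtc
Itga4, chr2:79255176-79255425, plus strand: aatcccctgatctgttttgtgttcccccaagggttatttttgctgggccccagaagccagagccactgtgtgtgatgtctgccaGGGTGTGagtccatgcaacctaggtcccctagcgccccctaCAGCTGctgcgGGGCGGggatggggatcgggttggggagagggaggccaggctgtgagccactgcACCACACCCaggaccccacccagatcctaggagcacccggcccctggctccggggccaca
These 4 windows held different letters. Itga1 had only CAGCTG, which 13% of 32851 promoter windows of this length hold. Itgb1 had GGGCGG and GAGGAA, held by 32.7% and 23.3% of all windows. Itgb7 had only GGGTGTG, which 6.93% hold, and Itga4 shared it in 2 places beside TGTGGT (14%), GGGCGG and CAGCTG. The TGTGGT match of Itga4 overlaps its second GGGTGTG match. None of the 6 windows held TCACACCT (1.12% of all windows), and Itgax alone held TGANTCA (6.75%). A match describes the letters and is no evidence of binding.

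Values below are log2 expression as deposited, so a difference of 1 is a 2-fold change, and a log2 fold change is effector minus memory or KO minus WT. A difference passed at an adjusted p under 0.05 in limma, with Benjamini-Hochberg adjustment over all 22180 genes. Levels of different genes cannot be set against each other, because each comes from its own probes. Array effector KO 4 stood apart: its correlations over genes with the other arrays were 0.965 to 0.974, against 0.971 to 0.994 among the other 15. The probe set of Il4i1 is shared with Nup62 and Il4i1b, so it cannot check the genotype labels. CD8 T cell identity was borne out by Cd3e, at 11.48 or more, and Cd8a, at 9.72 or more, on every array, and Cd4 lay between 3.78 and 5.17, near the array medians of 4.1169 to 4.2214.

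**Figure D1:**
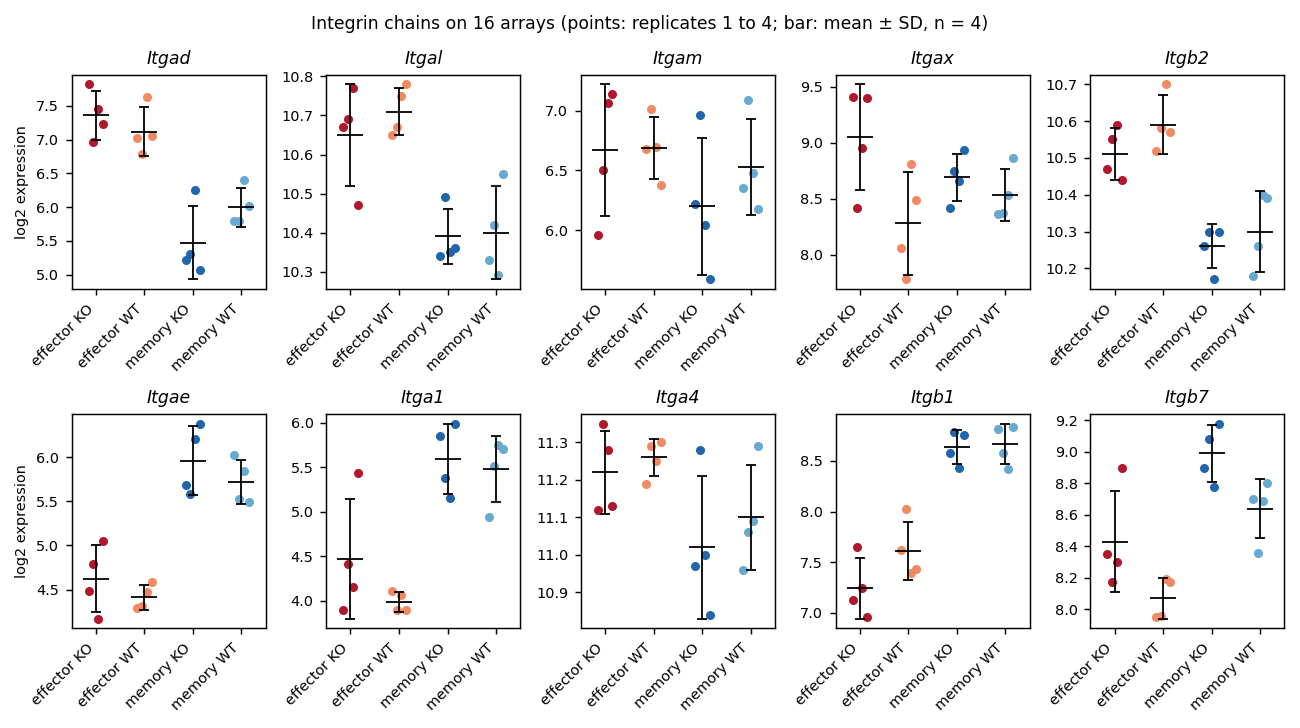
Log2 expression of each integrin chain (y axis, its own range per panel) on 16 arrays, by group (x axis); points are replicates 1 to 4 in order and bars are the mean ± SD (n = 4). The effector points lie above the memory points for Itgad and below them for Itgae and Itgb1, in KO and in WT.

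The comparison of effector with memory cells asks which chains go with each CD8 subset in leukaemia-bearing mice, and it was made in KO and in WT chimeras on separate arrays. In both genotypes the same 5 chains passed: Itgad was higher in effector cells, and Itgae, Itga1, Itgb1 and Itgb7 were lower. Of the 10 chains, 1 rose and 4 fell in each genotype. Over all genes 7.43% passed in KO (3.14% higher, 4.3% lower) and 3.22% in WT (0.92% higher, 2.3% lower). The median log2 fold change of the 10 chains was 0.22 in KO and -0.04 in WT, against 0.01 over all genes in both. Both estimates use 1 spread per gene from all 16 arrays.

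Among the β2 partners, Itgad, the gene of αD (CD11d), was the chain that rose. Effector KO arrays had 7.82, 6.97, 7.45 and 7.23, against 5.22, 5.31, 6.26 and 5.07 on memory KO arrays. Effector WT arrays had 7.02, 6.78, 7.63 and 7.06, against 5.80, 5.79, 6.40 and 6.01 on memory WT arrays. Every effector array lay above every memory array of its genotype. The rise was 3.73-fold in KO (log2 fold change 1.90 ± 0.25 SE, adjusted p = 0.000261) and 2.18-fold in WT (1.12 ± 0.25, adjusted p = 0.019). The WT call was lost without effector WT 3 (adjusted p = 0.0742), effector WT 4 (0.0502) or memory WT 1 (0.0753). Same-numbered arrays, which the labels do not state to be pairs, differed by 0.99 to 1.23 in WT and by 1.2 to 2.59 in KO. The difference between the genotypes in this gap was 0.78 ± 0.35 on the log2 scale and did not pass (limma, adjusted p = 0.841).

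Itgal and Itgb2, the chains of LFA-1, had small differences in one direction and did not pass. Itgal had 10.67, 10.69, 10.77 and 10.47 in effector KO against 10.34, 10.49, 10.35 and 10.36 in memory KO, and 10.65, 10.67, 10.75 and 10.78 in effector WT against 10.33, 10.42, 10.29 and 10.55 in memory WT. Its groups overlapped by effector KO 4 in KO and did not overlap in WT. The log2 fold change was 0.26 ± 0.09 in KO (adjusted p = 0.0877) and 0.32 ± 0.09 in WT (adjusted p = 0.0665). Without effector KO 4, the array that stood apart, the differences were 0.32 (adjusted p = 0.0285) in KO and 0.32 (adjusted p = 0.034) in WT. For the WT comparison, leaving out this array was chosen after seeing the data. Over all fits with an array left out, the adjusted p of Itgal ran from 0.0285 to 0.203 in KO. In WT it ran from 0.034 to 0.199. Itgb2, the shared β2 chain, had 10.44 to 10.59 in effector KO against 10.17 to 10.30 in memory KO, and 10.52 to 10.70 in effector WT against 10.18 to 10.40 in memory WT. These groups did not overlap in either genotype, and the log2 fold changes were 0.25 ± 0.08 (adjusted p = 0.0696) and 0.29 ± 0.08 (adjusted p = 0.0672). Without effector KO 4 the WT value of Itgb2 was 0.29 (adjusted p = 0.0499), again an alternative chosen after seeing the data. Over all fits with an array left out, the adjusted p of Itgb2 ran from 0.0533 to 0.156 in KO. In WT it ran from 0.0499 to 0.222. In the main fit the 95% interval of Itgb2 was 0.08 to 0.43 in KO and 0.12 to 0.46 in WT. A change of 2-fold lies outside it.

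Itgam and Itgax, the genes of αM (CD11b) and αX (CD11c), did not pass either. Itgam ranged from 5.96 to 7.14 in effector KO against 5.59 to 6.96 in memory KO, and from 6.38 to 7.01 in effector WT against 6.18 to 7.09 in memory WT. Its 95% intervals, -0.14 to 1.08 in KO and -0.44 to 0.78 in WT, leave room for a change in either direction. Itgax was at 0.36 ± 0.23 in KO (adjusted p = 0.428) and -0.25 ± 0.23 in WT (adjusted p = 0.736). Of the 4 αβ2 genes on the arrays, Itgad was thus the one that passed.

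Itgae, the gene of αE (CD103), was 2.52-fold lower in effector than memory cells of KO and 2.47-fold lower in WT. Effector KO arrays had 4.48, 4.79, 4.17 and 5.05, against 5.68, 5.58, 6.20 and 6.38 on memory KO arrays. Effector WT arrays had 4.29, 4.31, 4.47 and 4.58, against 6.02, 5.53, 5.84 and 5.49 on memory WT arrays. All 8 effector values lay below all 8 memory values. Of the 8, 7 lay above the median of their own array, effector KO 4 the farthest, at 5.05 against 4.2214. The log2 fold changes were -1.34 ± 0.20 (adjusted p = 0.000634) and -1.30 ± 0.20 (adjusted p = 0.0012), and both calls held in every alternative tried. No background level came with the arrays, so a fold over signals this dim may be understated.

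Itgb7, the partner chain of αE, fell with it by a smaller amount. Effector KO arrays had 8.35, 8.17, 8.30 and 8.90, against 8.90, 9.08, 8.78 and 9.18 in memory KO. Effector WT arrays had 7.95, 7.96, 8.19 and 8.17, against 8.70, 8.36, 8.69 and 8.80 in memory WT. The WT groups did not overlap, and in KO array effector KO 4 reached into the memory range. The fall was 1.47-fold in KO (-0.56 ± 0.15, adjusted p = 0.0293) and 1.49-fold in WT (-0.57 ± 0.15, adjusted p = 0.0445). These calls were near the threshold: leaving out 1 array at a time, the KO value ran from -0.71 to -0.47 and its call was lost in 5 of 8 fits (without effector KO 1, 2 or 3 or memory KO 2 or 4), and the WT value ran from -0.66 to -0.52. The WT call was lost in 7 of 8 fits that left out an array of that comparison, and stood without memory WT 2.

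Itgb1, the β1 chain that pairs with α1 and α4, was 2.63-fold lower in effector cells in KO and 2.07-fold lower in WT. Effector KO arrays had 7.12, 7.65, 7.24 and 6.96, against 8.58, 8.79, 8.43 and 8.76 on memory KO arrays. Effector WT arrays had 7.62, 8.02, 7.39 and 7.43, against 8.82, 8.58, 8.42 and 8.84 on memory WT arrays. The lowest memory array, at 8.42, was above the highest effector array, at 8.02. The log2 fold changes were -1.40 ± 0.16 (adjusted p = 9.02e-05) and -1.05 ± 0.16 (adjusted p = 0.00134), and both calls stood in every alternative tried.

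Itga1, the gene of α1 (CD49a), was also lower in effector cells. Effector KO arrays had 3.90, 4.41, 4.15 and 5.43, against 5.85, 5.38, 5.15 and 5.99 in memory KO. Effector WT arrays had 4.11, 3.90, 4.07 and 3.90, against 4.94, 5.51, 5.75 and 5.70 in memory WT. All 4 effector WT values lay under the median of their array, so their distance below memory has no measured floor, while effector KO 4, the array that stood apart, lay inside the memory KO range. The log2 fold change was -1.12 ± 0.27 in KO (adjusted p = 0.0187) and -1.48 ± 0.27 in WT (adjusted p = 0.00551). Without effector KO 4 the KO value was -1.44. The KO call was lost without effector KO 1 (adjusted p = 0.0607), effector KO 3 (0.0585), memory KO 1 (0.0515) or memory KO 4 (0.0722), and the WT call stood in every alternative tried.

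Itga4, the α4 chain that pairs with both β1 and β7, did not pass. It had 11.12, 11.35, 11.28 and 11.13 in effector KO against 10.84 to 11.28 in memory KO, and 11.19, 11.29, 11.25 and 11.30 in effector WT against 10.96, 11.06, 11.09 and 11.29 in memory WT. The groups overlapped in both genotypes. The log2 fold change was 0.20 ± 0.10 in KO (95% interval -0.02 to 0.41, adjusted p = 0.307) and 0.16 ± 0.10 in WT (-0.06 to 0.38, adjusted p = 0.56).

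**Figure D2:**
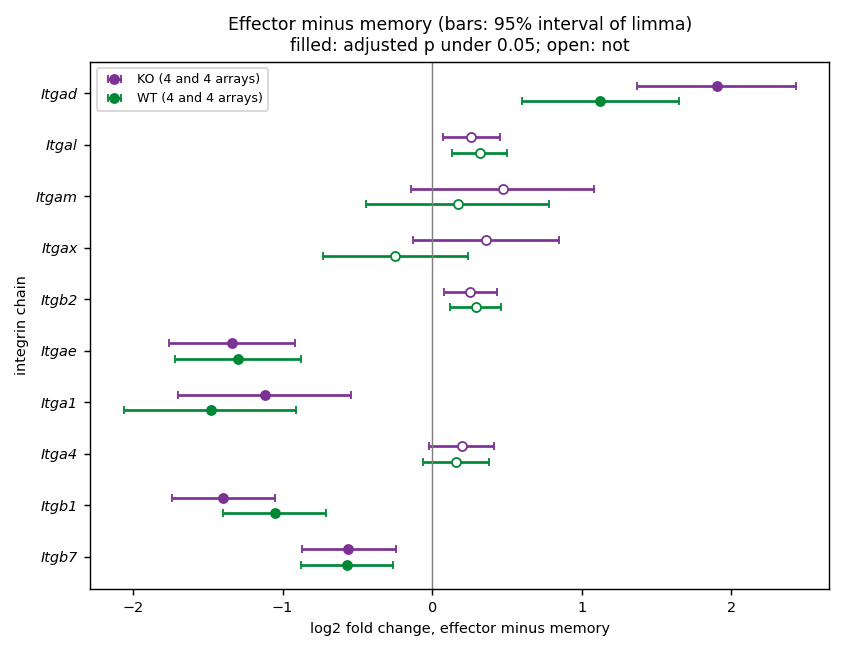
Log2 fold change, effector minus memory (x axis), of each chain (y axis) in KO and in WT, with 95% intervals from limma; filled points passed at an adjusted p under 0.05. Itgad lies to the right of 0 and Itgae, Itga1, Itgb1 and Itgb7 to the left in both genotypes, with the other 5 chains open.

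Counting arrays without a test, the groups of 4 did not overlap for 4 of the 10 chains in KO (Itgae, Itgad, Itgb1 and Itgb2), where 10.2% of all genes did not overlap. In WT they did not overlap for 7 of the 10 (these 4 with Itgal, Itga1 and Itgb7), against 13.2% of all genes. In bulk samples, fewer cells of a type and less RNA per cell cannot be told apart.

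The marker genes of other spleen cells also differed between the sorts, where 7.43% of all genes passed in KO and 3.22% in WT. B and CLL cell markers had mean levels of 4.17 to 4.51 over the 13 measured genes on effector KO arrays against 4.78 to 5.32 on memory KO arrays, and 4.10 to 4.25 on effector WT against 5.23 to 6.08 on memory WT arrays. Of these 13 genes, 12 had a lower mean in effector cells in each genotype, and 3 of them passed in KO and 11 in WT. Those that passed in both include Ighm, the heavy chain gene of IgM, with means of 9.56 in effector KO against 11.33 in memory KO and of 8.93 in effector WT against 11.09 in memory WT. Cd79b and Bank1 also passed in both. Ms4a1 (CD20), which passed in WT and not in KO, had means of 3.44 in effector KO against 4.27 in memory KO. In WT its means were 3.42 in effector against 5.67 in memory cells. Myeloid markers had mean levels of 5.23 to 5.46 on effector KO against 5.46 to 6.04 on memory KO arrays, and 5.17 to 5.45 on effector WT against 5.71 to 6.17 on memory WT arrays. Of 17, 14 had a lower mean in effector KO and 15 in effector WT; 4 passed as lower and 1 as higher in KO, and 6 passed as lower in WT. Mpeg1, Tyrobp, Sirpa and Csf1r passed as lower in both genotypes. Mpeg1 had means of 5.24 in effector KO against 6.22 in memory KO and 4.94 in effector WT against 6.80 in memory WT. The macrophage gene Adgre1, which did not pass, lay near the array median in all groups. Its means were 3.92, 3.93, 4.39 and 4.33 in effector KO, effector WT, memory KO and, last, memory WT.

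B cells and myeloid cells carry β1, β2 and β7 integrins too, and the part of such cells in the integrin differences was not tested. The B and CLL list had means of 4.95 in memory KO and 5.63 in memory WT. In these groups Itgb1 had means of 8.64 and 8.67, and Itgae of 5.96 and 5.72. Itgad was higher in effector cells, where the means of the B, myeloid and dendritic cell lists were lower. The part of these cells, or of red pulp macrophages, in the Itgad difference was not tested. Red pulp macrophage markers, of a cell type known for αD, were at 4.30 to 4.46 on effector KO against 4.32 to 4.84 on memory KO arrays, and at 4.36 to 4.64 on effector WT against 4.88 to 5.15 on memory WT arrays. In that list 8 of 11 had a lower mean in effector KO and 10 in effector WT, with 0 past the threshold in KO and 2, Axl and Treml4, past it in WT. Dendritic cell markers had means of 5.57 in effector KO against 5.87 in memory KO and 5.42 in effector WT against 5.99 in memory WT, and 8 of 12 genes had a lower mean in effector KO and 7 in effector WT. Of these 5 passed in KO and 6 in WT, among them in both genotypes the MHC class II genes H2-Aa, H2-Ab1 and H2-Eb1, which B cells also express. NK and innate-like markers had means of 6.24 in effector KO against 6.64 in memory KO and 6.25 in effector WT against 6.58 in memory WT, with 4 of 8 genes at a lower mean in each genotype, of which 2 passed in KO and 1 in WT. Of 10 CD4 and regulatory T cell markers 2 passed as higher in effector KO, and 1 passed as higher and 1 as lower in effector WT. Neutrophil, platelet and erythroid markers had 0 of 10, 0 of 8 and 0 of 3 past the threshold in each genotype.

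**Figure D3:**
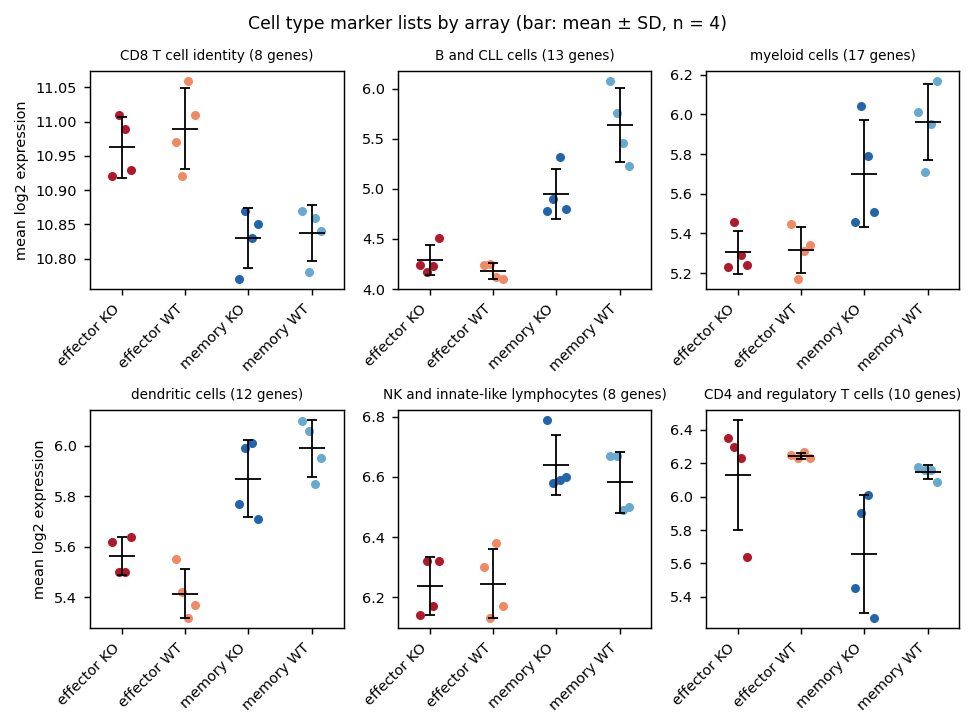
Mean log2 expression of 6 marker lists (y axis, its own range per panel) on each array, by group (x axis); points are arrays and bars the mean ± SD (n = 4). B and CLL cell means are 4.10 to 4.51 on effector arrays and 4.78 to 6.08 on memory arrays, and CD8 T cell identity means are 10.77 to 11.06 over all 16 arrays.

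The comparison of KO with WT asks what loss of Il4i1, a secreted oxidase of aromatic amino acids, from marrow-derived cells does to the chains in each subset. In effector cells 0 of the 10 passed (0.0541% of all genes did, 0.0361% higher and 0.018% lower), and in memory cells 0 of 10 (0.113% of all genes, 0.0361% higher and 0.0766% lower). At an unadjusted limma p under 0.05 there were 3 in effector cells (Itgax, Itgb1, Itgb7) and 2 in memory cells (Itgad, Itgb7), where 9.32% of all genes had such a p in effector and 11.3% in memory cells. No chain had groups of 4 that did not overlap, which 4.65% of all genes had in effector cells and 6.49% in memory cells. The difference between the effects in the 2 subsets passed for 0 chains and for 0% of all genes, with 1 chain, Itgad, at an unadjusted limma p under 0.05, as were 5.84% of all genes. These comparisons use the same arrays as those of effector with memory.

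The gene of CD127, the marker that separates the sorts, itself differed between the genotypes in effector cells. Il7r had 6.60, 5.43, 5.00 and 5.75 in effector KO against 3.83, 3.85, 4.02 and 4.46 in effector WT, without overlap. It was 3.14-fold higher in effector KO (log2 fold change 1.65 ± 0.25, adjusted p = 0.0183), and both effector groups lay far below memory cells, with means of 11.08 in memory KO and 10.71 in memory WT. Of the chains that were higher in memory cells, Itgae, Itga1 and Itgb7 had values above 0 in effector KO against WT (0.21, 0.48 and 0.36), on the side of memory cells. Itgb1 had a value below 0 (-0.37). None of these passed. Without effector KO 4 the values of Itgae, Itga1 and Itgb7 were 0.07, 0.16 and 0.21. The part of Il7r, or of the sort, in these values was not tested.

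Itgax, the gene of αX (CD11c), had the largest of these values. Effector KO arrays had 9.41, 8.42, 8.95 and 9.40, against 8.06, 7.78, 8.81 and 8.49 on effector WT arrays. Effector KO 2 lay within the WT range, and the other 3 KO arrays lay above it. The log2 fold change was 0.76 ± 0.23 (1.70-fold, 95% interval 0.27 to 1.25, adjusted p = 0.442). Over the fits that left out 1 array the value ran from 0.60 to 0.97 with adjusted p from 0.091 to 0.765, and it was 0.64 without effector KO 4. In memory cells Itgax had 8.42, 8.75, 8.66 and 8.93 in KO against 8.36, 8.37, 8.53 and 8.86 in WT (0.16 ± 0.23, adjusted p = 0.858). The difference between these effects was 0.60 ± 0.33 (adjusted p = 0.846). Dendritic cell markers, among which αX is a usual mark, had means of 5.50 to 5.64 on effector KO and 5.32 to 5.55 on effector WT arrays, with 0 of 12 past the threshold. Whether they play a part in the value of Itgax was not tested.

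Itgb7 had the same size of difference in both subsets. It averaged 8.43 ± 0.32 in effector KO and 8.07 ± 0.13 in effector WT (SD, n = 4 each), a log2 fold change of 0.36 ± 0.15 SE (adjusted p = 0.498). Memory KO had 8.99 ± 0.18 and memory WT 8.64 ± 0.19 (SD, n = 4 each), a log2 fold change of 0.35 ± 0.15 SE (adjusted p = 0.385). Without effector KO 4, at 8.90 the highest effector array, the effector value was 0.21.

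Itgb1 was at -0.37 ± 0.16 in effector cells (95% interval -0.71 to -0.03, adjusted p = 0.525) and at -0.03 ± 0.16 in memory cells (adjusted p = 0.973). Itgad was at 0.24 ± 0.25 in effector cells (adjusted p = 0.779) and -0.53 ± 0.25 in memory cells (adjusted p = 0.44). In memory KO, 3 arrays of Itgad, at 5.07 to 5.31, lay below the 4 WT arrays, and memory KO 3, at 6.26, lay within their range. Itga1 was at 0.48 ± 0.27 in effector cells (adjusted p = 0.603), a value that was 0.16 without effector KO 4, and at 0.12 ± 0.27 in memory cells. Itgae was at 0.21 ± 0.20 in effector and 0.24 ± 0.20 in memory cells, and Itgam at -0.03 ± 0.29 and -0.33 ± 0.29. With 1 array left out, Itgae ran from 0.07 (without effector KO 4) to 0.36 (without effector KO 3) in effector cells and from 0.10 (without memory KO 4) to 0.37 (without memory KO 2) in memory cells. Itgb1 in effector cells ran from -0.51 (without effector KO 2) to -0.24 (without effector WT 2). None of these passed.

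The intervals were narrowest for Itgal, Itgb2 and Itga4. For Itgal the 95% interval of KO minus WT was -0.25 to 0.12 in effector cells and -0.20 to 0.18 in memory cells. For Itgb2 it was -0.25 to 0.09 and -0.22 to 0.13, and for Itga4 -0.26 to 0.18 and -0.29 to 0.14. Itgal, Itgam, Itgax and Itgad lie on the chromosome that carries Il4i1, and the last 3 stand side by side there with only pseudogenes between them. Their starts lie 82.5, 83.2, 83.3 and 83.3 Mb from the start of Il4i1, in that order. Their effector KO minus WT values were -0.07, -0.03, 0.76 and 0.24, in that order, and the memory values -0.01, -0.33, 0.16 and -0.53.

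**Figure D4:**
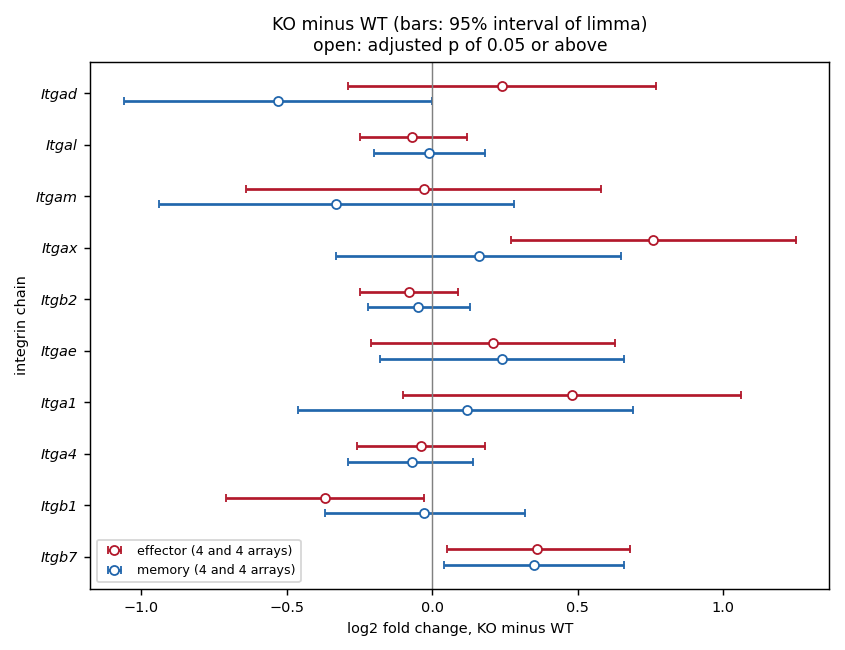
Log2 fold change, KO minus WT (x axis), of each chain (y axis) in effector and in memory cells, with 95% intervals from limma; all points are open because 0 passed. Itgax in effector cells, at 0.76, is farthest from 0.

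The order of the 4 groups followed the subset in 9 chains. Itgae, Itga1 and Itgb7 ran memory KO, memory WT, effector KO, effector WT from high to low, and Itgb1 ran memory WT, memory KO, effector WT, effector KO. Itgad ran effector KO, effector WT, memory WT, memory KO, and Itgal, Itga4, Itgb2 and also Itgam ran effector WT, effector KO, memory WT, memory KO. Neighbouring groups of the same subset overlapped in each of these. The step between the lower group of one subset and the upper group of the other was free of overlap for Itgae, Itgad, Itgb1 and Itgb2, and overlapped for Itgal, Itga1, Itga4, Itgam and Itgb7. Itgax alone was not ordered by subset: effector KO (9.05), memory KO (8.69), memory WT (8.53) and effector WT (8.28), each overlapping the next.

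Of the 15 other integrin chains measured, 0 passed between KO and WT in either subset. Itga6 alone passed between effector and memory cells, where 7.43% of all genes passed in KO and 3.22% in WT. Itga6, the α6 chain of laminin receptors, was lower in effector cells in KO (-0.84 ± 0.17, adjusted p = 0.00523) and WT (-0.69 ± 0.17, adjusted p = 0.0304). It had 6.51, 6.62, 6.55 and 5.71 in effector KO against 7.15, 7.30, 7.19 and 7.13 in memory KO. In WT it had 6.19, 6.22, 6.39 and 6.47 in effector against 7.07, 6.70, 7.22 and 7.06 in memory cells, so the groups did not overlap in either genotype. Over all genes 10.2% did not overlap in KO and 13.2% in WT. The other 14 of these chains did not pass, among them Itgav, at 0.85 ± 0.30 in KO (adjusted p = 0.0976) and 0.61 ± 0.30 in WT (adjusted p = 0.369).

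Itgb8 and Itgav encode the β8 and αv chains, which pair to form a receptor known to release active TGF-β. Itgb8 had 4.24, 4.61, 5.39 and 4.41 in memory KO against 6.07, 8.93, 6.38 and 6.04 in memory WT, all 4 KO arrays below all 4 WT arrays. Its log2 fold change of -2.19 ± 0.64 did not pass (adjusted p = 0.215). In effector cells Itgb8, here named after its values were seen, had 5.89, 7.48, 6.21 and 4.27 in KO against 7.58, 8.73, 7.28 and 7.48 in WT (-1.80 ± 0.64, adjusted p = 0.462). Replicate 2 was the highest array of its group in effector KO, effector WT and memory WT. Itgav was at -0.76 ± 0.30 in memory cells (adjusted p = 0.342), with 6.73, 7.85, 7.78 and 6.86 in KO against 7.89, 8.29, 8.06 and 8.01 in WT, again without overlap. Over all genes 6.49% did not overlap between memory KO and WT. The CD4 and regulatory T cell list was at 5.27 to 6.01 on memory KO and 6.09 to 6.18 on memory WT arrays. On effector arrays it was at 5.64 to 6.35 in KO and 6.23 to 6.27 in WT. The part of such cells in these values was not tested. Of the other integrin chains, the smallest p in effector KO against WT belonged to Itga3 (-0.77 ± 0.21, adjusted p = 0.385) and Itgb3 (-0.54 ± 0.18, adjusted p = 0.461). For both of these, effector KO 1 and 4 were the lowest arrays of the effector KO group.

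**Figure D5:**
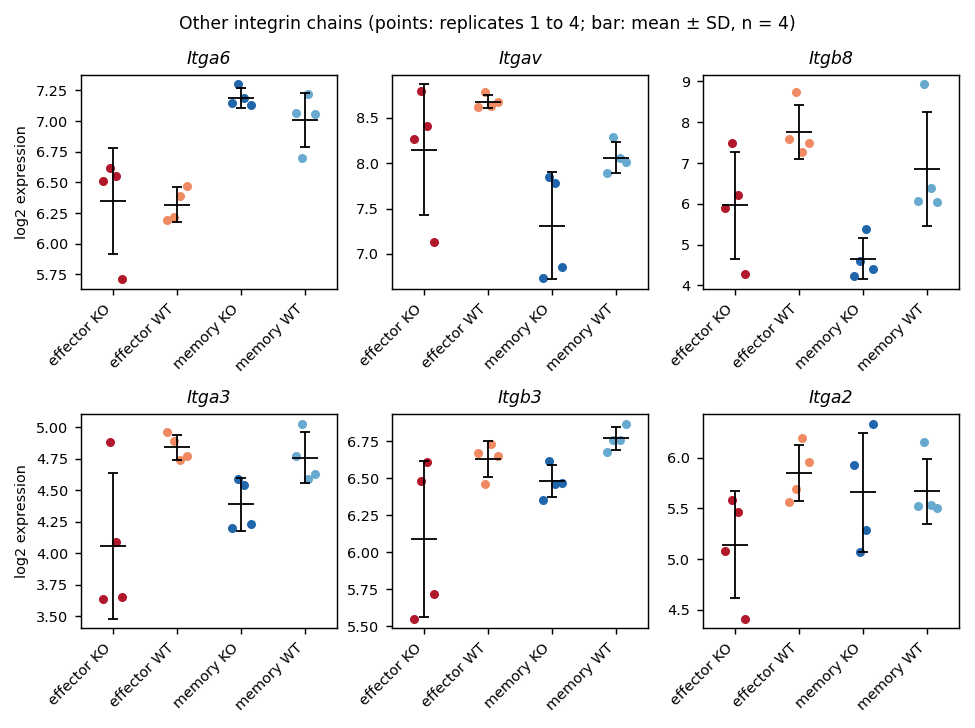
Log2 expression of 6 other integrin chains (y axis, its own range per panel) on 16 arrays, by group (x axis); points are replicates 1 to 4 in order and bars the mean ± SD (n = 4). Itga6 is lower on all effector arrays of a genotype than on its memory arrays, and Itgb8 spreads from 4.24 to 8.93 over the 16 arrays.

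Of 24 measured genes that switch integrins on or off or link them to actin, 0 passed between KO and WT in either subset. Vinculin (Vcl), which links integrins to actin, was at -0.60 ± 0.12 in effector cells (adjusted p = 0.119), with 4.80, 5.30, 5.10 and 4.90 in KO against 5.50, 5.53, 5.68 and 5.80 in WT. The Rap1 activator Rasgrp2 was at 0.56 ± 0.13 (adjusted p = 0.302). Between effector and memory cells, 2 of the 24 rose and 2 fell in KO, and 2 rose and 0 fell in WT. Over all genes 3.14% rose and 4.3% fell in KO, and 0.92% rose and 2.3% fell in WT. Sipa1, an inhibitor of Rap1, rose in effector cells in both (0.43 ± 0.08, adjusted p = 0.00205 in KO, and 0.38 ± 0.08, adjusted p = 0.00814 in WT). In KO the adaptor Dok1 rose (0.57 ± 0.13, adjusted p = 0.0157), and Vcl (-0.67 ± 0.12, adjusted p = 0.0023) and Cyth1, a cytohesin that acts at the β2 tail (-0.40 ± 0.11, adjusted p = 0.0381), fell. In WT the focal adhesion kinase relative Ptk2b rose (0.40 ± 0.11, adjusted p = 0.0495). Talin (Tln1) and kindlin-3 (Fermt3), named after their values were seen, were at -0.02 ± 0.10 and 0.23 ± 0.12 in KO and at 0.15 ± 0.10 and 0.25 ± 0.12 in WT.

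Of 17 measured ligand genes 0 passed between KO and WT, and 1 passed between effector and memory cells in each genotype, against 7.43% of all genes in KO and 3.22% in WT. In KO it was Cdh1, lower in effector cells (-0.88 ± 0.23, adjusted p = 0.0272), which encodes E-cadherin, the ligand of αEβ7. In WT it was Icam2, also lower in effector cells (-1.01 ± 0.19, adjusted p = 0.00733), a ligand of LFA-1. Icam2 in effector cells had 6.52, 6.27, 6.46 and 7.11 in KO against 5.61, 5.41, 5.92 and 5.48 in WT, without overlap, and did not pass (0.98 ± 0.19, adjusted p = 0.119). Over all genes 4.65% did not overlap in that comparison.

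Around Itgae and Itga1, 20 genes of tissue residency, egress and TGF-β signalling were measured, and 0 passed between KO and WT. Between effector and memory cells 3 rose and 6 fell in KO, and 2 rose and 6 fell in WT. The shares over all genes were 3.14% and 4.3% in KO, and 0.92% and 2.3% in WT. The lymph node homing receptor Ccr7 (-2.94 ± 0.23, adjusted p = 3.35e-06 in KO, and -2.46 ± 0.23, adjusted p = 2.29e-05 in WT) and the egress receptor S1pr1 (-1.40 ± 0.21, adjusted p = 0.000803, and -2.02 ± 0.21, adjusted p = 6.2e-05) fell in effector cells. The transcription factor Prdm1, which is known to promote effector and resident fates, rose in effector cells 2.82-fold in KO (adjusted p = 0.000278) and 1.73-fold in WT (adjusted p = 0.0392). Rgs1, a brake on chemokine receptor signals, rose 2.05-fold in KO (adjusted p = 0.00156) and 1.65-fold in WT (adjusted p = 0.0288). The chemokine receptor Cxcr3 fell in both (-0.56 ± 0.14, adjusted p = 0.0239 in KO, and -0.67 ± 0.14, adjusted p = 0.0139 in WT). Klf2, a factor that drives S1pr1, fell in WT (-1.38 ± 0.24, adjusted p = 0.00367) and was at -0.81 ± 0.24 in KO (adjusted p = 0.0507). Cd69, a marker of activated and tissue-resident cells named here after its values were seen, was lower in effector cells in WT (-0.65 ± 0.17, adjusted p = 0.047) and was at -0.39 ± 0.17 in KO (adjusted p = 0.203).

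The genes most like each chain were taken as the 3 with the highest Pearson correlation of log2 expression over the 16 arrays, given with no test, since all points share the sorts and arrays. For Itgae these were Tnfsf8 (r = 0.964), Rpl29 (0.961) and Rpl14 (0.953). Itgad was most like Morrbid (0.969), Neb (0.952) and Plk3 (0.951). The 3 nearest to Itgb1 were Suclg2 (0.962), Hgsnat (0.959) and the sort gene Cd44 (0.948), and the 3 nearest to Itgb7 were Iqgap2 (0.967), Klk8 (0.963) and Samhd1 (0.962). Itga1 was nearest to Dusp7 (0.934), Acaa2 (0.925) and Pim2 (0.923). Part of this likeness is the step between the sorts, more so for some pairs than for others. As deviations from group means the correlation with Itgb1 was 0.533 for Cd44, and that with Itgae 0.696 for Tnfsf8. It stayed higher for Itgb1 with Suclg2 (0.866), Itgb7 with Iqgap2 (0.884), Itgad with Morrbid (0.82) and Itga1 with Dusp7 (0.823). Itgax, which had no such step, was nearest to Kcnab2 at 0.931, and at 0.925 in deviations, followed by Rnf43 (0.89) and Slc9a3r1 (0.886). Itgal was nearest to Chfr (0.919), Ptpn13 (0.917) and AI504432 (0.915), and Itgb2 to Rhoq and Mllt6 (both 0.936) and Numbl (0.934). Itga4 was nearest to Ttc39b (0.898), Pear1 (0.881) and Man2b2 (0.879), and Itgam to Adam9 (0.841), Apoa2 (0.79) and Cdan1 (0.786).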

How the data were processed

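RNA from sorted cells was extracted with the RNeasy Micro Kit and 1 ng was labelled with the GeneChip WT Pico kit, per the labels' protocols. The deposited table has 41345 probe sets as rows and 16 samples as columns. The authors' values were taken as log2 expression normalized between arrays, from their range of 0.7365 to 14.0453; neither the log base nor the method was stated there. The probe table gave 1 gene symbol for 23521 probe sets, several for 1814 and none for 16010. Where a gene had several probe sets (1082 genes), the one with the highest mean was used. limma 3.58.1 in R 4.3.3 fitted 4 group means to all 16 arrays (12 residual and 4.23 prior degrees of freedom), with 5 contrasts, two-sided, errors of fold changes being SE. The number of arrays limits the precision, and p-values measure the spread between samples, which may be technical. The members and lists were chosen with earlier results of these data known. Per list, up to 4 genes that passed were named by smallest p, or 2 where none passed. The fits were tested on simulated data.

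In WT, same-numbered effector and memory arrays deviated from their group means together (r = 0.147, 0.342, 0.208 and 0.193 over genes above the median), each highest with its own number. The labels state no pairs, and arrays of different genotype also reached 0.22 (effector KO 2 with effector WT 2). The numbers were thus not taken as pairs in the main fits. Alternatives were quantile normalization, genes above the overall median only, the mean of probe sets, a trended prior, only the 8 arrays compared, a replicate block, and each array left out.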

Additional observations from a re-analysis of the deposited data

Results flagged for a closer look

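Itgal on array memory KO 2, at 10.49, stood above the other 3 memory KO arrays, which had 10.34, 10.35 and 10.36. The gap to the next array was 0.9 of the whole range of the group and so above Dixon's 95% critical value for 4 values. It was the only such value among 40 groups of 4 (10 chains in 4 groups), and chance gives about 1 in 20 groups.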

How the results depend on the processing

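Over 790 recomputed values of single chains, 0 that had passed or came to pass changed direction, 21 fell short of the threshold and 13 came past it. Between KO and WT, 0 of the 10 chains passed in effector cells, in memory cells or in the difference between them, under any alternative tried. Among effector and memory cells, 5 chains passed in each genotype. In KO there were 3 in a fit of only the 8 arrays compared (Itgae, Itgad and Itgb1), and 3 to 6 with 1 array left out. In WT it was 3 to 7 with 1 array left out, of which the 7 came without effector KO 4, an alternative chosen after seeing the data. The 3 in KO came without effector KO 1, effector KO 3 or memory KO 4, and the 3 in WT without effector WT 3, effector WT 4 or memory WT 1. Itgal and Itgb2 passed in both genotypes with a trended prior, which gave 7 chains in each, and in WT with quantile normalization or among genes above the overall median, 7 chains each.

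With a replicate block, 5 chains passed in KO and 5 in WT, as without it, and it changed no call of a chain; between KO and WT 0 passed. In effector with memory in KO the same-number correlations were 0.017 for replicate 1 and 0.168, 0.192 and 0.188 for replicates 2, 3 and 4. The last 3 were each highest with their own number, as were those in WT, which is a hint of pairing from the data and not from the design. Between genotypes these correlations ran from -0.029 to 0.22 in effector KO with WT and from 0.006 to 0.139 in memory KO with WT. Over all genes the block gave 794 calls in WT (715 without it) and 1824 in KO (1649 without it), 1 in effector KO against WT (12 without it) and 15 in memory KO against WT (25 without it). Counts of genes between KO and WT moved widely: 4 to 42 in effector cells and 11 to 249 in memory cells with 1 array left out, the 42 without effector KO 2 and the 249 without memory KO 3. Fits of only the 8 arrays compared gave 4 and 7 there, and 600 in KO and 1320 in WT between effector and memory cells, where leaving out 1 array gave 961 to 2044 and 359 to 693. Without effector KO 4, chosen after seeing the data, memory KO against WT had 92 and effector against memory in WT 1037. The difference between the effects had 0, and 5 without memory KO 3. Background levels were not used here, so dim signals such as Itga1 and Itgae in effector cells have no floor.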
